A study of Mus musculus with 11 samples.

Results

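The comparison described here sets livers of mice injected with a scramble oligomer against livers of mice injected with its vehicle, phosphate-buffered saline (PBS). All 3 scramble libraries and all 4 PBS libraries were taken by their titles, 7 of the 11 libraries in the series, with all 13636 genes of the deposited table. Every library came from liver of a male C57BL/6J mouse, a widely used inbred strain. Western diet feeding began when the mice were 8 weeks old, and injections started about a month later and went on for 6 weeks. The scramble group received an oligomer dose that was raised from 2.5 to 5.0 and then 7.5 mg/kg, and the PBS group received no oligomer. Diet, strain, sex and age at the start were thus shared by both groups. The 4 other libraries came from mice given a miR-30c mimic in the same doses and entered the fit so that the spread between libraries could be estimated. The labels give no sequence, chemistry, carrier or route for the scramble oligomer. They number the libraries without tying each to a mouse of its own, and the p-values rest on the spread of these libraries, which may be technical.

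A scramble oligomer is a control whose base order is meant to match no transcript in particular. It carries whatever a repeated injection of an oligonucleotide does by itself. Foreign nucleic acid can be read by Toll-like receptors in endosomes and by RIG-I, MDA5 and PKR in the cytosol, which lead to type I interferon and to interferon-stimulated genes. In liver, Kupffer cells and sinusoidal endothelial cells take up oligonucleotides from blood, and hepatocytes answer inflammatory cytokines with acute phase proteins. In male mice, pulses of growth hormone act through STAT5 on hepatocytes and drive the major urinary protein (Mup) genes and the feedback genes Cish and Socs2.

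With limma, 0 of 13636 genes differed between scramble and PBS at an adjusted p under 0.05 (0.0%), and the smallest adjusted p was 0.557. At an unadjusted p under 0.05 there were 434 genes (3.18%), 219 higher in the scramble group (1.61%) and 215 lower (1.58%). The edgeR quasi-likelihood test on reads recovered from the values also called 0 (0.0%), with 471 at an unadjusted p under 0.05 (3.45%). DESeq2 called 14 of 13360 genes with an adjusted p (0.105%), 11 higher (0.0823%) and 3 lower (0.0225%). A fit of the 7 PBS and scramble libraries alone called 5 genes, all higher in the scramble group (0.0367%), with limma and with edgeR. In the same limma fit of 11 libraries, the mimic group differed from PBS in 5059 genes (37.1%) and from scramble in 4363 (32.0%). Those comparisons share the PBS and scramble libraries with this one.

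The differences that the data allow were bounded by an interval for each gene. The unit throughout is scaled CPM, the reads of a gene scaled to the effective size of its library. A log2 difference is taken after adding 1 to each value, so differences of low genes come out smaller than their ratio. The standard error of a difference had a median of 0.107 over genes, and the 95% interval had a median half-width of 0.234. For 13341 genes (97.8%) the whole interval lay within 2-fold in either direction. The difference itself was under 0.5 in 99.3% of genes and reached 1 in 8 genes. In 644 genes PBS and scramble values were apart with no overlap (4.72%), 318 with all scramble libraries above all PBS libraries (2.33%) and 326 with all below (2.39%).

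Depth overlapped between the groups. Recovered reads ranged from 62848115 to 101380174 per library, Mup rows held 37.9% to 52.9% of them, and 0 to 2 genes per library were at 0. RNA integrity numbers are labelled for 4 of the 7 libraries, between 8.5 and 9.2. Of the libraries, 5 measures (reads, scaling factor, Mup share, share of the 20 most abundant genes, genes at 0) gave two-sided exact permutation p-values between 0.686 and 1 over 35 labellings, with adjusted p of 1 for each (the smallest p that 4 against 3 libraries can give is 0.0286). The hepatocyte markers were abundant in all 7 libraries, with Alb between 13896 and 21929, and all 8 had intervals within 2-fold. None of 11 lymphocyte markers was in the table. Erythrocyte, neutrophil and stellate cell markers gave 0 calls of 4, 5 and 10 measured, as did the whole table. Intervals lay within 2-fold for 1, 5 and 10 of them. The erythrocyte marker Hba-a2 had an interval from -1.04 to 0.71, so a 2-fold lower level was not excluded.

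One library stood apart. The distance between libraries was taken as the SD over genes of their log2 difference. It averaged 0.349 from PBS 2 to the other PBS libraries, and each of the remaining 6 libraries averaged 0.255 to 0.286 to its own group. Over all pairs, libraries of different groups lay no farther apart (0.271, 12 pairs) than libraries of one group (0.284, 9 pairs). The difference was -0.0127 with a two-sided exact permutation p of 0.429 over 35 labellings. Without PBS 2 it was -0.000751, with an exact permutation p of 1. The limma count stayed at 0 without PBS 2, with 686 genes at an unadjusted p under 0.05.

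**Figure D1:**
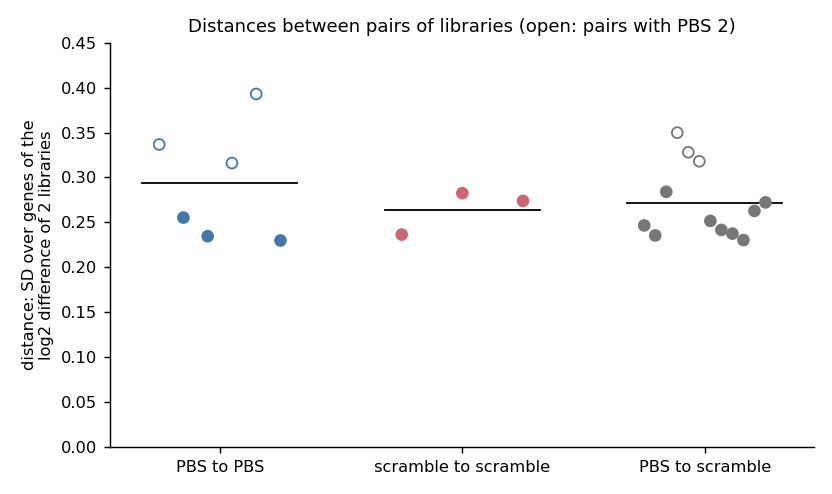
Distance between pairs of libraries, the SD over 13636 genes of the difference in log2(value + 1), for pairs of PBS libraries, pairs of scramble libraries and pairs across groups. Each point is a pair, lines are means and open points are pairs with PBS 2. Pairs across groups lie in the range of pairs within a group, and the open points are the highest in their columns.

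Among the genes with small p-values that were higher in the scramble group was a set with correlated values over the 7 libraries. Cep85, which encodes a centrosomal protein (chromosome 4, 134129858 to 134187112, GRCm38), was at 168, 183, 185 and 177 scaled CPM in PBS 1 to 4 and at 343, 371 and 428 in scramble 1 to 3. The means were 178 ± 7.78 (SD, n = 4) and 381 ± 43.4 (SD, n = 3), a log2 difference of 1.08 ± 0.21 (SE) with an adjusted p of 0.557 in limma. The scramble mean was 2.13 times the PBS mean, and every scramble library lay above every PBS library. Grk5, a kinase of G protein-coupled receptors (chromosome 19, 60889749 to 61095968), was at 43.0, 47.4, 48.8 and 45.6 in PBS and at 77.0, 81.1 and 87.7 in scramble libraries. Its log2 difference was 0.81 ± 0.17 (SE, adjusted p = 0.596, limma). Cnbd2, Coro2b and the predicted gene Gm13247 differed by 0.91, 0.80 and 0.90.

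These 5 are the genes that the fit of 7 libraries called, with adjusted p from 0.0210 to 0.0289 in limma. The calls depended on single libraries. Without PBS 1, PBS 3, PBS 4, scramble 2 or scramble 3 that fit called 0 genes, and without PBS 2 it called 4 of the 5, all but Coro2b. Without scramble 1 it called Cep85, Cnbd2, Gm13247, Grk5 and the immediate early gene Egr1. Mimic libraries, which share the spread estimate in the fit of 11, ranged from 245 to 566 for Cep85 and from 61.3 to 117 for Grk5. All 4 mimic libraries were thus above the PBS libraries for both genes, against the same PBS controls.

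The rows of the set were closely correlated over the 7 libraries. With Cep85, 6 rows had a Pearson correlation of at least 0.99 on the log2 scale, namely Grk5, Coro2b, Gm13247, Cnbd2, AK082693 and Gm13152. The correlation was taken over both groups, and the 5 genes were called for a difference between these groups. That difference alone raises the correlation, so it cannot show whether the genes vary separately. Correlation within a group was not tested. Grk5 held 0.205 to 0.263 of the Cep85 value over the libraries and Cnbd2 0.327 to 0.396. The ranges were wider for AK082693 (0.174 to 0.333) and Gm13152 (0.170 to 0.295). The shares were not constant, and for these rows they were lower in every scramble library than in every PBS library. In GENCODE M21, transcripts of Cep85 and Cnbd2 share 399 words of 48 bases, the read length, although they lie on different chromosomes. Of the 7 rows 4 were found in that annotation, and this was the 1 pair of them that shared words. Grk5 and Coro2b share 0 such words with each other, with Cep85 or with Cnbd2. The rows Gm13247, AK082693 and Gm13152 could not be searched. The values of Cep85 and Cnbd2 are therefore uncertain, since reads of a repeated sequence could be counted for both. Whether this holds for the rows not searched is not known. The part of shared reads in the differences of the set was not tested.

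**Figure D2:**
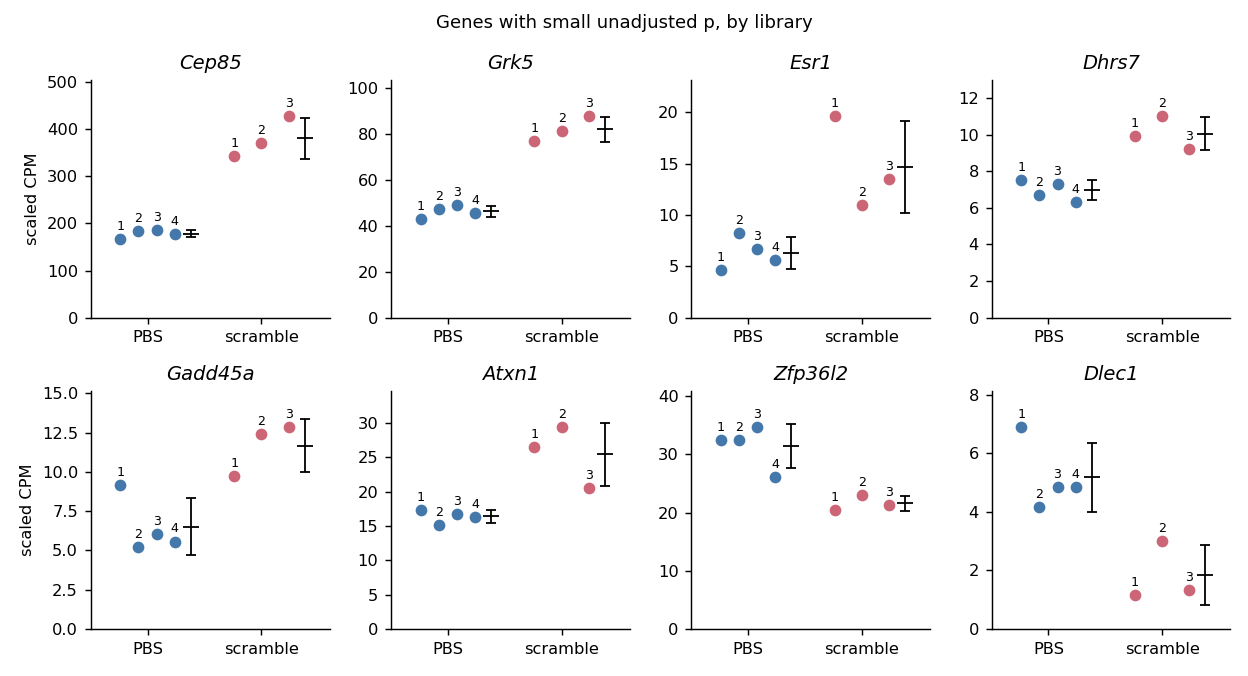
Scaled CPM of 8 genes with small unadjusted p in each library (points, numbered by replicate), with the group mean and SD beside the points. PBS and scramble libraries do not overlap for any of the 8, and none passed the adjusted test in the fit of 11 libraries.

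Other genes higher in the scramble group had lower levels. Esr1, the estrogen receptor alpha (chromosome 10, 4611593 to 5005614), was at 4.67, 8.25, 6.69 and 5.60 in PBS and at 19.6, 10.9 and 13.5 in scramble libraries. The means were 6.30 ± 1.54 (SD, n = 4) and 14.7 ± 4.47 (SD, n = 3), with a log2 difference of 1.09 ± 0.19 (SE, adjusted p = 0.557, limma). Dhrs7, a short-chain dehydrogenase/reductase, was at 7.54, 6.70, 7.29 and 6.31 in PBS and at 9.91, 11 and 9.20 in scramble libraries, 1.44 times as high on average. Both rows were again higher in all 4 mimic libraries than in all PBS libraries, at 14.2 to 18.7 for Esr1 and 12.8 to 13.9 for Dhrs7.

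For Atxn1, Tmem39a and Gadd45a the mimic libraries did not follow. Atxn1, the ataxin 1 gene, was at 15.1 to 17.3 in PBS and at 26.4, 29.3 and 20.5 in scramble libraries, and at 11.6 to 13.7 in mimic libraries. Tmem39a, a transmembrane protein gene, was at 3.8 to 4.75 in PBS, 6.63 to 7.15 in scramble and 4.19 to 5.63 in mimic libraries. Gadd45a, a gene of growth arrest after stress, was at 9.20, 5.23, 6.02 and 5.57 in PBS and at 9.74, 12.4 and 12.8 in scramble libraries, with 4.22 to 4.87 in mimic libraries. Its log2 difference of 0.77 had an adjusted p of 0.564, which became 0.0498 (limma, difference 0.93) without PBS 1.

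Among genes lower in the scramble group, Zfp36l2 had the smallest p. It encodes a protein that binds AU-rich elements in mRNA and promotes decay (chromosome 17, 84183931 to 84187947). It was at 32.5, 32.5, 34.6 and 26.0 in PBS and at 20.5, 23.0 and 21.4 in scramble libraries, a log2 difference of -0.51 ± 0.10 (SE, adjusted p = 0.557, limma). Cpeb1, which regulates translation through the polyadenylation of mRNA, differed by -0.42. Dlec1 had a larger difference at a low level, with 6.89, 4.17, 4.85 and 4.84 in PBS and 1.17, 3.01 and 1.33 in scramble libraries. Cadm1, a cell adhesion molecule, and Tspan9, a tetraspanin, differed by -0.36 and -0.27. Fam131c, Mad2l1bp, Phf13, Obp2a and Tuba8, also among the 10 lowest p-values in this direction, were under 3 scaled CPM in all 7 libraries. Tuba8 was at 1.63, 2.10, 0.875 and 0.662 in PBS and at 0.445, 0.343 and 0.359 in scramble libraries. DESeq2 called Zfp36l2, Cpeb1 and Tuba8 lower. It called Esr1, Dhrs7, Atxn1, Tmem39a, Gadd45a, Adh1 and the 5 genes Cep85, Grk5, Gm13247, Coro2b and Cnbd2 higher, with adjusted p between 0.00107 for Esr1 and 0.0482 for Adh1.

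The sensors of foreign nucleic acid did not separate the groups. Of 19 measured genes 0 were called and 0 had groups that did not overlap, against 4.72% of all genes. Intervals of 18 lay within 2-fold, and the median difference was -0.04. Tlr3, the endosomal receptor of double-stranded RNA, was at 2.23, 2.44, 2.73 and 3.1 in PBS and at 2.65, 2.76 and 2.12 in scramble libraries. Its difference was -0.04 with a 95% interval from -0.33 to 0.24. Tlr7, which reads single-stranded RNA, was below 1 in all 7 libraries and differed by -0.04 (-0.43 to 0.34). Tlr9, the receptor of unmethylated CpG DNA, was at 1.46, 2.07, 0.178 and 0.952 in PBS and at 1.13, 1.0 and 0.858 in scramble libraries. The cytosolic sensors Ddx58 (RIG-I), Ifih1 (MDA5) and Eif2ak2 (PKR) differed by 0.02 (-0.36 to 0.40), 0.13 (-0.15 to 0.41) and 0.02 (-0.18 to 0.23). Zbp1 was the exception with a wide interval, from -1.03 to 0.98, and was at 16.5 in PBS 2 against 2.95 to 5.92 in the 6 other libraries.

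Interferon-stimulated genes gave 0 calls of 41, with a median difference of -0.09 and 33 intervals within 2-fold. Over all genes the median difference was 0.00 and 97.8% of intervals were within 2-fold. The groups did not overlap for 3 of the 41, Oas2, Rtp4 and Mx2, all lower in the scramble group, against 2.39% of all genes in that direction. Irf7, the regulator that amplifies type I interferon, was at 19.7, 25.4, 18.9 and 15.4 in PBS and at 21.0, 17.7 and 20.5 in scramble libraries, a difference of 0.01 (-0.35 to 0.36). Ifit1, which binds foreign RNA, was at 6.23, 11.3, 4.90 and 5.78 in PBS and at 8.74, 5.99 and 6.15 in scramble libraries. Its interval ran from -0.87 to 0.92, and PBS 2 was the highest library. Isg15, a ubiquitin-like modifier, differed by 0.06 (-0.97 to 1.09), an unadjusted interval that reached about 2-fold in both directions. Without PBS 2 the median of the list was 0.12.

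Acute phase genes, with 0 calls of 35, had a median difference of 0.03. Of their intervals 24 lay within 2-fold (68.6%, against 97.8% of all genes). The groups did not overlap for 1 gene higher in the scramble group, Cebpb, and 1 lower, Saa1. Over all genes these shares were 2.33% and 2.39%. Saa1, a serum amyloid A gene, was at 27.5, 116, 33.7 and 26.3 in PBS and at 18.4, 17.8 and 19.5 in scramble libraries. The groups did not overlap, and the log2 difference of -1.11 ± 0.46 (SE, adjusted p = 1, limma) was -0.62 without PBS 2. Saa2, a near-identical copy with which it can share reads, was at 5.90, 37.7, 11.8 and 6.81 and at 7.73, 5.68 and 4.65. Cebpb, a transcription factor of the acute phase response, was at 77.7, 89.2, 78.8 and 69.2 in PBS and at 102, 98.9 and 99.3 in scramble libraries, a difference of 0.35 ± 0.10 (SE). Hamp, the iron hormone hepcidin, varied within both groups, at 40.8, 139, 70.7 and 55.3 and at 210, 98.7 and 61.5. Lcn2 was at 1.76 to 6.05 in PBS and 1.48 to 2.58 in scramble libraries.

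Markers of Kupffer cells and other macrophages had lower means in the scramble libraries, and none was called. All 19 differences were below 0, with a median of -0.22, and the groups overlapped for each of the 19. Over all genes, 4.72% had groups that did not overlap. Clec4f, a lectin of Kupffer cells, was at 43.9, 40.4, 37.9 and 24.9 in PBS and at 19.2, 26.2 and 38.3 in scramble libraries. Timd4, a receptor of resident Kupffer cells, was at 4.45, 4.11, 4.30 and 2.19 and at 1.6, 2.81 and 4.12. PBS 4 and scramble 1 were the low libraries for both, and scramble 3 was among the high ones. The list score, the mean log2 deviation of the members from the mean of the 7 libraries, was 0.24, 0.47, 0.09 and -0.45 in PBS and -0.43, -0.12 and 0.19 in scramble libraries. The median was -0.10 without PBS 2 and ranged from -0.43 to -0.06 over all alternatives. In whole liver, fewer macrophages and less RNA per macrophage cannot be told apart.

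Genes that handle oligomers had intervals like those of other genes. Of 28 measured genes of uptake and lysosomes 27 had intervals within 2-fold, against 97.8% of all genes, with a median of -0.03. Asgr1, a subunit of the asialoglycoprotein receptor of hepatocytes, differed by 0.07 (-0.12 to 0.26), and Msr1, a scavenger receptor of macrophages, by -0.23 (-0.42 to -0.04, adjusted p = 1, limma). All 17 measured genes of small RNA processing had intervals within 2-fold, among them Drosha at -0.02, Dicer1 at 0.05 and Ago2, the slicing Argonaute, at 0.02. The groups did not overlap for 1 of them (against 4.72% of all genes), Dgcr8, the RNA-binding partner of Drosha, at 4.54, 4.24, 4.48 and 4.23 in PBS and 3.78, 3.54 and 4.03 in scramble libraries.

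Several chaperones of the endoplasmic reticulum (ER) had lower values in every scramble library. Of 26 measured genes of ER and amino acid stress 0 were called. Of the 26, 5 lay wholly below PBS (Derl3, Sdf2l1, Hsp90b1, Calr and Atf4, against 2.39% of all genes). Dnajb9 alone lay wholly above (against 2.33% of all genes). Derl3, which takes part in the export of misfolded proteins from the ER, was at 7.55, 3.41, 2.02 and 6.34 in PBS and at 0.905, 1.2 and 1.53 in scramble libraries, a difference of -1.29 ± 0.39 (SE, adjusted p = 1, limma). Sdf2l1, an ER cochaperone, was at 7.28, 5.4, 6.42 and 10.3 and at 3.0, 3.96 and 3.23. Hsp90b1 (GRP94), the abundant ER chaperone, was at 370, 334, 351 and 386 in PBS and at 297, 318 and 275 in scramble libraries. The median of the list was -0.06. Hspa5 (BiP), the main target of the unfolded protein response, was at 208, 188, 228 and 236 and at 201, 215 and 211, with overlapping groups, and Ddit3 (CHOP) differed by 0.03. Dnajb9, an ER cochaperone of BiP, lay on the other side, with 17.3 to 18.8 in PBS and 22.8 to 27.2 in scramble libraries.

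Several drug-metabolizing genes had higher values in every scramble library. Of 45 measured genes 0 were called, 5 lay wholly above PBS (Cyp2a4, Cyp2a5, Cyp2c54, Cyp2e1 and Ces2a, against 2.33% of all genes), and the median difference was 0.13. The median was 0.06 without PBS 2, the library with the lowest score of this list (-0.35). Cyp2a5, the coumarin 7-hydroxylase of mouse liver, was at 356, 199, 326 and 257 in PBS and at 457, 460 and 430 in scramble libraries, a difference of 0.69 ± 0.30 (SE, adjusted p = 1, limma). Cyp2a4 shares 639 words of 48 bases with it, so these members of the 5 may hold the same reads. Cyp2e1, which oxidizes ethanol and other small molecules, was at 5183 to 5463 in PBS and at 5675 to 5974 in scramble libraries. The alcohol dehydrogenase Adh1 was at 591 to 676 and at 751 to 822, a difference of 0.28 ± 0.09 (SE).

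The 16 genes of lipoprotein assembly differed by -0.29 to 0.22, with a median of -0.01. The groups did not overlap for 2 of the 16, both lower, against 2.39% of all genes in that direction. Pdia3, 1 of them, was at 182, 187, 179 and 196 in PBS and at 147, 161 and 147 in scramble libraries. Its difference was -0.29 (-0.84 to 0.25). Mttp, the transfer protein for the lipidation of apolipoprotein B, was at 128, 128, 133 and 143 in PBS and at 119, 117 and 130 in scramble libraries, a difference of -0.12 (-0.34 to 0.10). Apob differed by -0.03 (-0.39 to 0.33). Of 25 genes of cholesterol biosynthesis 20 had a difference above 0, against 6847 of 13636 over all genes, with a median of 0.12, and all 25 had intervals within 2-fold. The groups did not overlap for 2 of the 25, Msmo1, a sterol oxidase, and Mvk, mevalonate kinase, both higher, against 2.33% of all genes in that direction. In fatty acid and triglyceride synthesis, with 27 measured, Dgat2, which forms triglyceride, lay wholly above PBS (0.29, against 2.33% of all genes). Elovl3, a male-biased elongase, lay wholly below (-0.57, against 2.39% of all genes). The largest difference of that list was that of Thrsp, a lipogenic gene, at 0.81 with overlapping groups. Ribosomal protein genes (49 of 49) and subunits of the respiratory chain (40 of 40) had all intervals within 2-fold, with medians of 0.02 and 0.03.

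Genes that respond to circulating signals had overlapping groups. Of 21 measured circadian genes 19 had intervals within 2-fold, and the clock output gene Dbp was at 51.6, 54.0, 45.8 and 50.7 in PBS and at 53, 60.1 and 53.8 in scramble libraries. Of 40 genes of fatty acid oxidation 35 lay within 2-fold, with a median of -0.05. Pck1, the gluconeogenic enzyme, differed by -0.05 (-0.45 to 0.36). Scd1, a desaturase of fatty acid synthesis, was at 2560 to 3511 in PBS and at 2566 to 4809 in scramble libraries, with an interval from -0.25 to 0.87. Cyp2b10, the classic target of the receptor CAR, was at 3.03, 0.354, 0.475 and 3.29 in PBS and at 4.43, 4.09 and 0.687 in scramble libraries, a difference of 0.57 with an interval from -0.95 to 2.09. The metallothioneins Mt1 and Mt2 differed by -0.34 and -0.51, again with overlapping groups.

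Markers of scarring and of lipid-laden macrophages were low. Col1a1, a fibrillar collagen, was at 1.78, 4.19, 0.712 and 0.759 in PBS and at 1.99, 1.74 and 1.28 in scramble libraries. Trem2 and Gpnmb, macrophage genes of metabolic liver disease, were below 1 in all 7 libraries, with differences of -0.10 and -0.15. The p53 target Cdkn1a was at 0.265 to 1.25, and its groups overlapped.

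**Figure D3:**
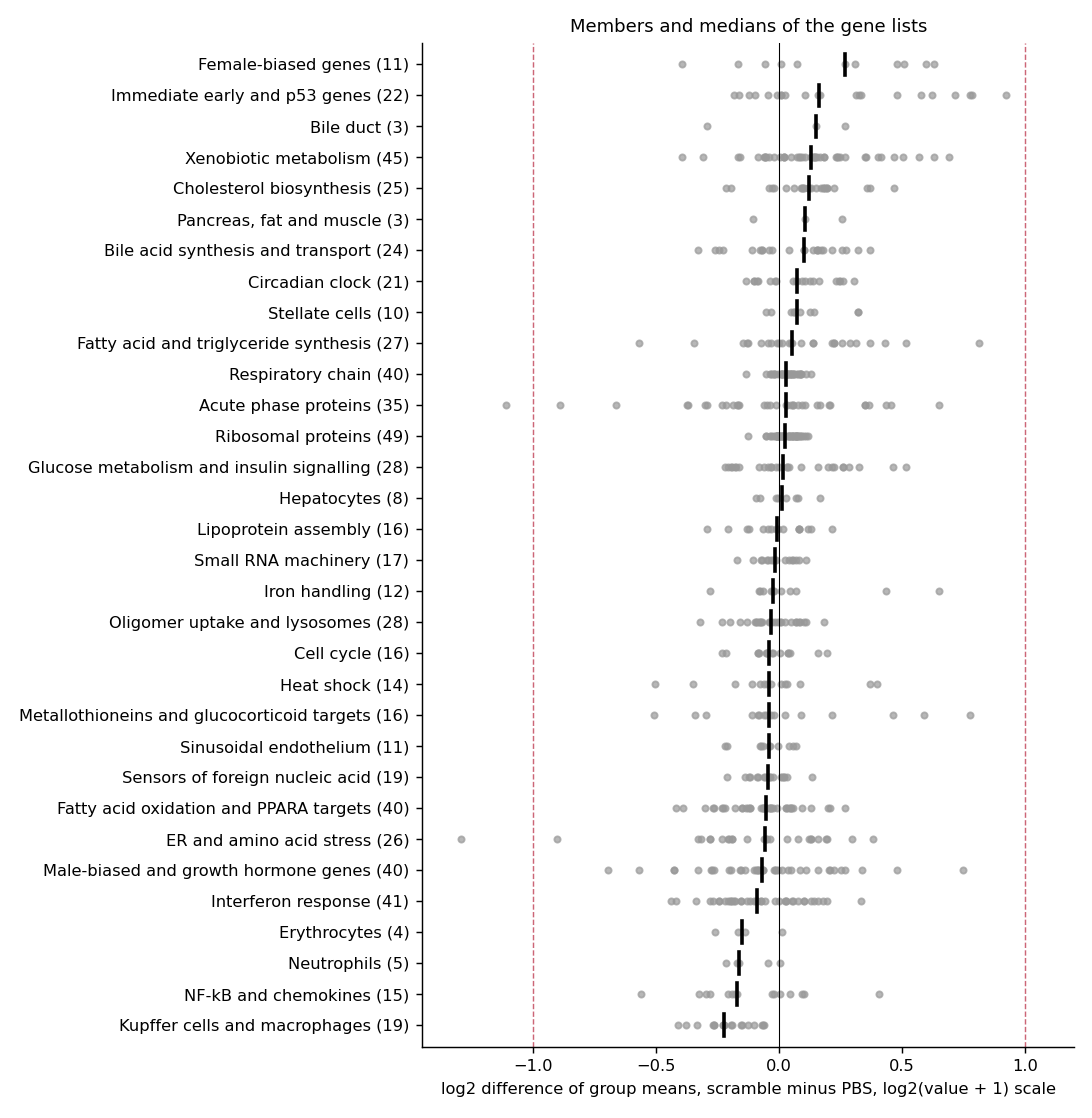
Log2 differences (scramble minus PBS) of the members of 32 gene lists, with the number measured in brackets. Points are genes, black bars are list medians and dashed lines mark 2-fold. Medians lie between -0.22 (Kupffer cells and macrophages) and 0.27 (female-biased genes, 0.07 without PBS 2, 0.08 without scramble 1 and 0.46 without scramble 3), and the points beyond or near 2-fold are single genes.

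Library-to-library variation was small for most genes. The SD within a group had a median of 0.131 over genes in PBS and 0.108 in scramble libraries on the log2 scale. Of 8125 genes with a mean of at least 5, 204 (2.51%) had a pooled SD of at least 0.5, and 17 had 1 or more. Each library was compared with the median of the other libraries of its group. Genes 2-fold above or below it numbered 66 and 46 in PBS 2. They numbered 21 and 75 in scramble 3 and 47 and 7 in scramble 1. In the remaining libraries these numbers were between 8 and 24. Fewer libraries enter that median in the scramble group, so the numbers of the groups are not directly comparable. The genes behind the numbers fell into a few patterns.

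PBS 2 was high in genes that interferon-gamma induces and in genes of MHC class II. Tgtp1, a GTPase of cell-autonomous immunity (chromosome 11, 48985327 to 48994172), was at 42.9 in PBS 2 and at 3.81 to 6.32 in the 6 other libraries. Cxcl9, a chemokine for T cells, was at 22.2 against 3.09 to 4.91. Cd74, the invariant chain of MHC class II, was at 135 against 21.9 to 41.7, and H2-Eb1 was at 149 against 22.1 to 44.2. Ciita, the activator of the MHC class II genes, was at 2.76 in PBS 2 and below 1 elsewhere. The score of 18 interferon-inducible GTPases was 1.28 in PBS 2 and from -0.46 to -0.03 elsewhere. That of 9 MHC class II genes was 1.36 in PBS 2 and from -0.63 to -0.02 elsewhere. H2-DMb1 and H2-DMb2 in it hold identical values and share 381 words of 48 bases. These 2 lists were chosen after their values were seen. The macrophage score of PBS 2 was the highest as well, at 0.47, and Marco, a scavenger receptor of macrophages, was at 13.5 against 0.823 to 5.38. The part of other cells in this pattern was not tested. The list of 41 interferon-stimulated genes scored 0.67 in PBS 2 and -0.20 to 0.01 elsewhere, with Irf7 at 25.4 against 15.4 to 21.0 and Isg15 at 6.24 against 2.10 to 3.81.

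The promoters of the GTPase genes are shown because these genes moved together across the libraries. RefSeq promoters (GRCm38.p6, 250 bases before to 50 after the start) were found for 10 of the 18. The words searched on both strands were the core of the interferon-stimulated response element, GAAA and GAAA with any 2 bases between them, and TTCNNNGAA, the half-site spacing of a STAT dimer. The first was found in a promoter of 9 of the 10 genes and TTCNNNGAA in 6, against 3.94% and 8.49% of the 9449 genes of the table with a promoter. Windows of 30 bases around a match follow, 5′ to 3′ on the gene's strand, with the matched word in capitals.
Tgtp1 (chr11:48992315-48992344, minus strand): aactagccatTTCCAGGAAtcgaaactgaa
Tgtp2 (chr11:49064274-49064303, minus strand): agctagccatTTCCAGGAAtcgaaaccgaa
Igtp (chr11:58199501-58199530, plus strand): aactagccatTTCTAGGAActgaaactgaa
Irgm2 (chr11:58214892-58214921, plus strand): aactagccatTTCCAGGAActgaaactgaa
Gbp2 (chr3:142620594-142620623, plus strand): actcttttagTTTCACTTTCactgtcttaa
Gbp7 (chr3:142530273-142530302, plus strand): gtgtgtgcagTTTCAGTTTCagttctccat
The first 4 windows have TTCNNNGAA in capitals, and the paired GAAA word begins a few bases after it. The windows of Gbp2 and Gbp7 have the paired word in capitals, on the opposite strand. Tgtp2, Igtp, Irgm2, Gbp2 and Gbp7 were at 33.1, 49.1, 89.2, 12.7 and 14.8 in PBS 2. Tgtp1 and Tgtp2 share 2492 words of 48 bases, so their values are not independent. A match describes the sequence and does not show binding.

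Other genes were low in PBS 2. Bcl6, a transcriptional repressor of growth hormone and immune genes, was at 4.75 in PBS 2 against 13.3 to 34.4. Cep55 was at 0.596 against 5.66 to 8.29, and Ffar4, a receptor of long-chain fatty acids that lies next to it on chromosome 19, at 0.987 against 5.84 to 8.41. The annotated genes do not overlap and their transcripts share 0 words of 48 bases. The xenobiotic list had its lowest score in PBS 2, at -0.35, against -0.06 to 0.16 elsewhere.

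**Figure D4:**
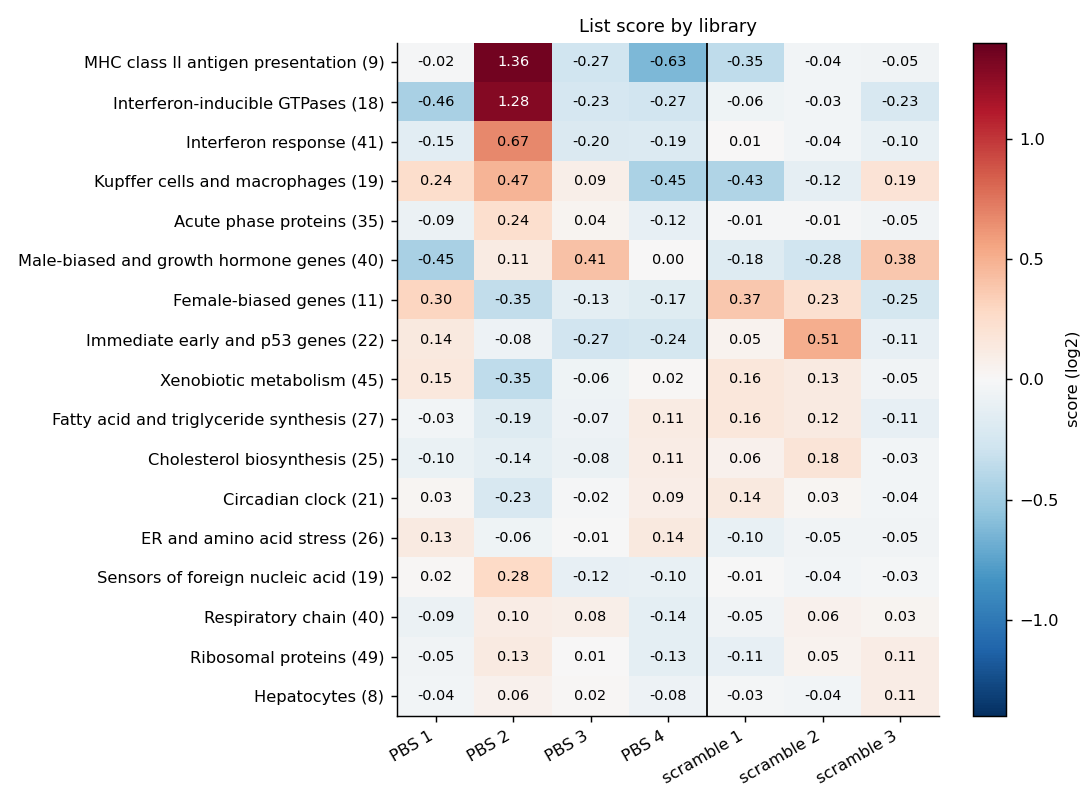
Score of 17 gene lists in each of the 7 libraries, the mean over members of the log2 deviation from the mean of the libraries, with the number of members in brackets. PBS 2 has the highest scores of the MHC class II, GTPase, interferon and macrophage lists, and PBS 3 and scramble 3 the highest of male-biased genes.

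Genes under growth hormone split both groups. The score of 40 male-biased and growth hormone genes was highest in PBS 3 (0.41) and scramble 3 (0.38) and lowest in PBS 1 (-0.45) and scramble 2 (-0.28). The Mup share of reads was 52.9% and 50.02% in the high pair and 38.2% and 37.9% in the low pair. Mup genes are members of the list, so the share and the score are in part the same values. Cish, the feedback inhibitor of STAT5 (chromosome 9, 107296026 to 107302784), was at 1.22, 9.88, 15.3 and 9.23 in PBS and at 5.59, 3.29 and 12 in scramble libraries. Socs2, another feedback inhibitor, was at 8.10, 45.4, 35.1 and 21.9 and at 25.3, 12.2 and 33.0. PBS 1 was the lowest and scramble 2 the next lowest for both. The group difference of Cish was -0.15 with an interval from -1.52 to 1.21, so that a 2-fold difference between the groups was not detectable. In the promoter of Cish a window at chr9:107296649-107296678 on the plus strand holds 1 of its TTCNNNGAA words in capitals. The window ends with another such word, in lower case.
Cish: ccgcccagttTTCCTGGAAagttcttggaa
Of 11 feedback genes of cytokine and growth hormone signalling with a promoter, 4 held such a word (Bcl6, Cish, Igfals and Socs3). Of the 9449 genes of the table with a promoter, 8.49% held it. This list was chosen after its values were seen, and no promoter was found for Socs2.

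Some genes had 2 levels. Moxd1, a gene of the monooxygenase family (chromosome 10, 24223517 to 24302790), was at 33.7, 55.0 and 52.6 in PBS 2, PBS 3 and scramble 3 and at 0.0905, 0.742, 0.386 and 0.502 in the 4 others. No library lay between. The same gene was at 57.8 and 54.9 in 2 mimic libraries and at 2.21 and 0.627 in the others. Trhde, a peptidase that degrades thyrotropin-releasing hormone (chromosome 10, 114398823 to 114802307), was at 28.1, 30.8 and 32.6 in PBS 2 to 4 and at 24.2 and 25.8 in scramble 1 and 2. It was at 0.709 in PBS 1 and at 0.749 in scramble 3. Slc36a3, an amino acid transporter gene, was at 42.4 in PBS 3 and at 0.0484 to 2.62 elsewhere. Mup6 was at 186 to 535 in 6 libraries and at 25.8 in scramble 3, and its group difference was -1.55, and -0.56 without that library.

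Cfd, which encodes complement factor D (adipsin) and is abundant in fat, was at 38.5, 14.5, 32.3 and 8.07 in PBS and at 54.7, 115 and 0.718 in scramble libraries. Fabp4, another fat marker, had a group difference of -0.10. Of the 11 markers of pancreas, fat and muscle, 3 were in the table (Cfd, Fabp4 and Cela1). The part of attached fat in the level of Cfd was not tested.

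**Figure D5:**
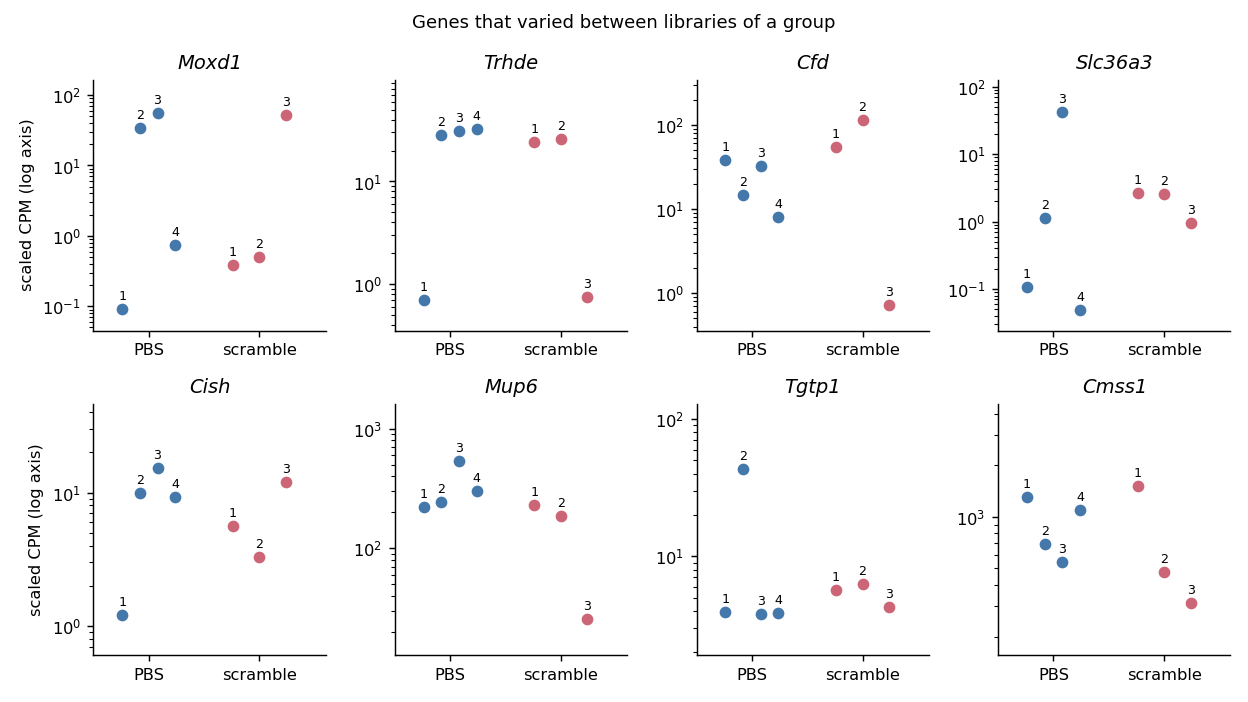
Scaled CPM on log axes of 8 genes that varied between libraries, by library (points, numbered by replicate). Moxd1, Trhde and Slc36a3 have libraries at high and at low levels, Tgtp1 is high in PBS 2 alone, and Cfd and Mup6 are low in scramble 3.

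Immediate early genes were high in scramble 2, and several also in PBS 1. Fos was at 8.40 in scramble 2 and at 0.92 to 1.42 in the 6 other libraries. Jun was at 98.1 in scramble 2, 67.1 in PBS 1 and 27.5 to 46.9 elsewhere. Atf3, a stress transcription factor, was at 17.7 and 11.5 in these libraries against 1.96 to 6.57, and Gdf15, a stress hormone, was at 47.2 and 46.2 against 10.1 to 23.0. Egr1 was at 18.8 in scramble 2 and 11.5 in scramble 3, against 2.06 in scramble 1 and 3.38 to 4.18 in PBS. The list of 22 immediate early and p53 genes had a median group difference of 0.16 and 0 calls. The median was 0.03 without scramble 2, 0.31 without PBS 1 and 0.41 without scramble 3. Gadd45a was the 1 member whose groups did not overlap, against 4.72% of all genes. Rgs16, a regulator of G protein signalling in liver, was at 64.5 in scramble 3 and at 8.07 to 25.7 elsewhere. Its difference of 1.22 was 0.67 without scramble 3.

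A last pattern followed ribosomal RNA. The row Rn45s, the precursor of ribosomal RNA, was at 8584, 5155, 3835 and 7940 in PBS and at 10330, 3509 and 2464 in scramble libraries. Cmss1 and Filip1l, which overlap on opposite strands of chromosome 16, were at 1301, 696, 545 and 1090 and at 1166, 623, 489 and 969 in PBS. They were at 1514, 476 and 313 and at 1366, 433 and 279 in scramble libraries. In all, 15 other rows had a correlation of at least 0.99 with Cmss1 over the 7 libraries, among them Rn45s, Lars2, Cdk8 and Peak1. Rn45s held 6.60 to 7.87 times the value of Cmss1 in each library. Scramble 1 was high and scramble 3 low in this set, and the group difference of Cmss1 was -0.49 (-1.76 to 0.78). Of these 16 rows with Cmss1, the 14 found in GENCODE shared 0 words of 48 bases with each other. How much ribosomal RNA each library retained was not given in the sources used here, and its part in these rows was not tested.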

How the data were processed

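Liver RNA of 11 libraries was sequenced in paired reads of 48 bases. The deposited table holds 1 signal per gene and library. All values within a library (100% at a tolerance of 1e-06) were whole multiples of a single step, so the authors' signal is counts scaled by an effective library size (scaled CPM), and reads were recovered from it. Per the submitters' processing notes, the tools were Bowtie, SAMtools 0.1.19, bedtools 2.17.0 and edgeR 3.8.6 and the build mm10. The counting rules are not given in the sources used here. Of the rows, 54 were identical to another.

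The main test was limma 3.58.1, run in R 4.3.3, on log2(value + 1). The planned test assumed CPM and was kept for the scaled values. The model had 3 group means over 11 libraries, a variance trend and Benjamini-Hochberg adjustment over 13636 genes at 0.05. Alternatives were edgeR 4.0.16 and DESeq2 1.42.0 on recovered reads, other scalings, filters and pseudocounts, the fit of 7 libraries, the replicate block and each library left out. The fits were tested on simulated data. Chi-square per degree of freedom between libraries of a group was at least 62.6, so none was a repeat deposit.

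Members, 33 gene lists and tests were chosen with earlier results of these data known, and 4 further lists after the values were seen. Lists are described by counts and medians. Genes were named from the rule that took the 10 smallest p per direction, the 4 largest non-overlapping differences per direction and 29 fixed genes. It also took the 3 members per list with the smallest p and the 15 largest SDs. Per library it took the 4 genes furthest above and below the median of the group's other libraries. Others were added after seeing their values, such as Fos, Jun, Hspa5, Tlr7 and the members of the 4 further lists. Positions came from GENCODE M21 and promoters from RefSeq (GRCm38.p6).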

Additional observations from a re-analysis of the deposited data

Results flagged for a closer look

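In the PBS group, some libraries lay far from the 3 others, judged by the gap to the nearest library relative to the whole range. Chance gives such a gap in about 1 in 20 groups, and 128 genes and 5 measures of the libraries were examined. Many of the genes had been named because they varied, and several move together. PBS 2 accounted for 13 of the 23 cases. It was high in the interferon-inducible genes Irf1 (13.7), Zbp1 (16.5), Tgtp1 (42.9), Tgtp2 (33.1), Igtp (49.1), Irgm2 (89.2), Gbp2 (12.7) and Cxcl9 (22.2), and in Saa1 (116), Gpnmb (0.838) and the row Olfr56 (59.6). It was low in the neighbours Cep55 (0.596) and Ffar4 (0.987). PBS 1 was low in Trhde (0.709), Fkbp5 (19.2) and Socs3 (14.6) and high in Ddit3 (3.59) and Cyp2b9 (3.32). PBS 4 was high in Creb3l2 (2.90) and low in Tlr7 (0.371) and in the macrophage markers Timd4 (2.19) and Adgre1 (3.52). PBS 3 was the deepest library, with 101380174 recovered reads. The 3 scramble libraries are too few for the same examination.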

How the results depend on the processing

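The count of genes called, 0 in the main analysis, was 5 with the 7 libraries alone, 14 with DESeq2 and between 0 and 1 with each library left out. It was 0 under the 11 other settings tried with limma and edgeR. Taking the replicate number as a block, the count was 0 with 11 libraries and 0 with 7 libraries. Same-numbered libraries deviated together with correlations of 0.126, -0.00935 and 0.175, so the numbers were not taken to pair the samples, and not every library correlated best with its own number. For the fit of 7 libraries, further alternatives were chosen after seeing the data. Library totals gave 12 calls, 5 higher and 7 lower, with Cep85 as the only 1 of the 5 genes called before. A pseudocount of 0.25 gave 5 calls and single libraries left out gave 0 to 5. Genes with an interval within 2-fold numbered 13184 to 13352 with a library left out. The between-group minus within-group distance stayed below 0 and uncalled, from -0.0189 to -0.000751 with a library left out. The median pooled SD was 0.115 to 0.135 with a library left out, 0.156 with a pseudocount of 0.25 and 0.246 with library totals. The medians of 2 short lists moved by more than the spread, neutrophils to -0.34 with a pseudocount of 0.25, and pancreas, fat and muscle to -0.12 with that pseudocount, -0.13 without PBS 4, -0.19 without scramble 2 and 0.33 without scramble 3. The cause was not tested. With 4 and 3 libraries, differences under about the median half-width of 0.234 were not detectable for a typical gene even before adjustment. Larger ones also went uncalled after adjustment over genes, such as Dhrs7 at 0.47 ± 0.08 (SE, adjusted p = 0.557, limma).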

Other observations

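Beyond the patterns above, further transcription and signalling genes differed between libraries of the same group. Phlda1 was at 10.3, 23.6, 60.3 and 40.3 in PBS and at 36.4, 9.86 and 57.9 in scramble libraries, low in PBS 1 and scramble 2. Foxq1, a forkhead factor, was at 5.14, 14.5, 34.6 and 19.3 and at 18.9, 4.33 and 20.1, and Tchh at 0.648, 2.98, 10.5 and 9.96 and at 7.49, 0.449 and 5.2, in both cases lowest in the same libraries. Efna1, an ephrin ligand, was highest in scramble 2 and lowest in scramble 3, at 63.8, 39.2, 22.3 and 49.3 and at 73.2, 97.6 and 16.8. Cyp7b1, a male-biased oxysterol hydroxylase, was at 424 in PBS 2 against 100 to 266 in the 6 other libraries. Thrsp, a lipogenic gene, was at 161 in scramble 1 against 36.9 to 84.0 elsewhere. Of the genes named in this paragraph none passed the adjusted test between the groups in limma.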
